A study of Mus musculus with 58 samples.

Results

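The 9 genes described here are those of the cellular oxygen-sensing pathway: the hypoxia-inducible factor genes Hif1a, Epas1 and Hif3a and their partner Arnt, the prolyl hydroxylase genes Egln1, Egln2 and Egln3, the asparagine hydroxylase gene Hif1an, and Vhl. They were chosen by symbol from the 52459 genes counted, and all 9 were among the 19120 genes with a median above 4 normalized counts that were tested. RNA came from retinas of male mice, 4 months old, which were either heterozygous for the Ins2Akita allele of C57BL/6-Ins2Akita/J (diabetic retinas) or wild-type littermates (control retinas). The allele misfolds insulin and damages the beta cells of the pancreas, so that diabetes in this model is a lack of insulin from early life and is not caused by diet. All animals lived in a daily light-dark cycle, were perfused with cold saline, and were sampled at ZT1, 5, 9, 13, 17 and 21, where ZT is hours after lights on and the last 3 points fall in the dark and were dissected under dim red light. There were 30 control libraries (5, 6, 5, 5, 5 and 4 by time point) and 28 diabetic libraries (5, 5, 5, 4, 4 and 5). The comparisons asked whether each gene followed the time of day in either genotype, and whether its level or its rhythm differed between them.

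Cells measure oxygen by destroying a transcription factor. In normal oxygen the prolyl hydroxylases modify the alpha subunits encoded by Hif1a and Epas1, the VHL protein recognizes the modified subunit, and its ubiquitin ligase complex sends the subunit to the proteasome. When oxygen falls the alpha subunit escapes, pairs with ARNT and switches on genes of glycolysis, glucose transport and vessel growth, among them Egln1 and Egln3 themselves, which closes a feedback loop. The product of Hif1an blocks the activation domain of the alpha subunit, and some products of Hif3a oppose the other alpha subunits. The retina, whose photoreceptors use much oxygen in the dark, is a tissue where this pathway is often studied. Because control of the alpha subunits acts largely on the protein, transcript levels are not levels of active factor.

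Control libraries held 7773117 to 19929725 counted reads, and diabetic libraries 8588878 to 22147398. Markers of retinal cell types were present in all libraries, and the 5 rod markers summed to 459970 to 707580 normalized counts in control retinas and 448100 to 640810 in diabetic ones. In 3 control libraries, ZT1 replicate 6, ZT17 replicate 5 and ZT21 replicate 2, 5 lens markers summed to 31846, 21895 and 25376 normalized counts, against at most 690 in every other library, and the counts and calls that moved without them are given beside the results. In whole retina, fewer cells of a type and less RNA per cell cannot be told apart. Each library came from an individual retina, but the labels do not tie libraries to animals, so p-values measure the spread between these samples.

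Promoters are shown for Egln1 and Hif3a, the members with the largest relative amplitudes rhythmic in both genotypes, and for Egln3, which was rhythmic in control retinas. RefSeq's promoter table on GRCm38.p6 had an entry for 8 of the 9 genes, and the letters ACGTG or GCGTG, the core to which hypoxia-inducible factors bind, were searched on both strands. Of 32851 promoter windows of 300 bases, from 250 before to 50 after each start, 43.8% held such a core, and 6 of the 8 genes did. The sequences below run 5′ to 3′ on the strand of the gene, with the core in capitals (CACGC is GCGTG on the opposite strand). For Hif3a they cover chr7:17062428-17062677, and for Egln3 chr12:54203875-54204124, both on the minus strand. For Egln1 the stretch before the annotated gene is chr8:124949325-124949504 on the minus strand, and another core lies in the 30-base window chr8:124949305-124949334.
Egln1: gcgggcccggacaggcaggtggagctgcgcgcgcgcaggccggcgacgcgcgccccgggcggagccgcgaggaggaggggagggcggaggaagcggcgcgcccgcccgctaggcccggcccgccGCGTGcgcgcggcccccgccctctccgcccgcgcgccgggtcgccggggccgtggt
Egln1 window: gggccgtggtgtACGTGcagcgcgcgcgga
Hif3a: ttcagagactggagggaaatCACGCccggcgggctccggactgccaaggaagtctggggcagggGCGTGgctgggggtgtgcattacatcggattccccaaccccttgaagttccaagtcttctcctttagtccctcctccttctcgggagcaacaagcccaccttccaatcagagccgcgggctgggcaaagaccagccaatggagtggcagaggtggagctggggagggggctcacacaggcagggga
Egln3: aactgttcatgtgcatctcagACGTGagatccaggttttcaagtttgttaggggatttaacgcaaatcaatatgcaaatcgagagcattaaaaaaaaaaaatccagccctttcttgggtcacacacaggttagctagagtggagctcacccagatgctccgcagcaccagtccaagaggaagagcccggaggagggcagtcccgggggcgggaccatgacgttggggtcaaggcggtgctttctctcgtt
The 2 cores of Egln1 lay 126 and 68 bases before the RefSeq start, those of Hif3a 230 and 186 bases, and that of Egln3 229 bases. Such a match is a description of letters and is frequent, as the share of all promoters shows.

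Per length of exon Hif1a and Epas1 led the group. Mean RPKM (reads scaled to exon length and library total) over the 58 libraries were 97.5 ± 8.81 (SD) for Hif1a and 48.3 ± 4.46 for Epas1, then 31.4 ± 5.05 for Egln1. Behind them came Hif1an with 14.7 ± 1.37, Egln2 with 13.8 ± 1.08, Arnt with 11.2 ± 1.12 and Vhl with 9.09 ± 1.01. Hif3a with 1.69 ± 0.629 and Egln3 with 1.35 ± 0.274 were the scarcest of the 9. Hif1a, Epas1, Egln1 and Vhl each exceeded the next gene of this order in all 58 libraries. The order was less clear for Hif1an above Egln2, which held in 42 libraries, and for Hif3a above Egln3, which held in 33. Among the prolyl hydroxylases, Egln1 was thus the most abundant transcript and Egln3 the least. Exon length was that of all annotated exons of a gene together, and the order under other lengths was not tested.

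**Figure D1:**
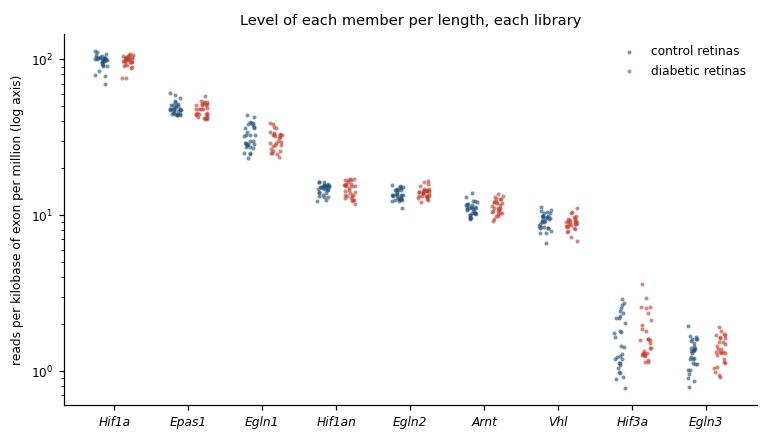
RPKM (reads scaled to exon length and library total) for the 9 genes, 1 point per library, on a log axis, for control and diabetic retinas. Hif1a has the highest mean, 97.5, and the points of Hif3a and Egln3 overlap near the bottom.

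Hif1a, on chr12:73901375-73947530, encodes the oxygen-regulated subunit found in most cells, and its transcript was steady over the day. It had 8317 ± 725 normalized counts in control retinas (SD, n = 30; 6354 to 9671) and 8294 ± 581 in diabetic retinas (n = 28; 7013 to 9119). The group means ran from 7757 at ZT17 to 9023 at ZT13 in control and from 7902 at ZT1 to 8603 at ZT9 in diabetic retinas, with no rhythm call (permutation p = 0.389 and 0.236, empirical JTK_CYCLE). Of its exonic bases, 5.6% are shared with the antisense gene Gm15283 and 2.51% with Gm49321 on the same strand, and whether the counting used strand is not given in the sources used here.

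Epas1, on chr17:86753700-86833410, encodes the alpha subunit best known from endothelium, and was rhythmic in both genotypes. A gene was called rhythmic with an unadjusted JTK p-value under 0.05 and a minimum ratio between its highest and lowest library, and JTK p-values are permutation p-values from shuffled series over the 30 control or 28 diabetic libraries. All 9 genes exceeded that ratio in both genotypes, the lowest being 1.30, so it removed none of them. This criterion called 5 of the 9 genes in control retinas, where it called 21.8% of all genes tested, and 5 of 9 in diabetic retinas, where it called 23.9%. At ZT5 the 6 control libraries had 3424 to 3822 normalized counts of Epas1 with a median of 3561, and at ZT17 the 5 had 3991, 4157, 4196, 5074 and 5147. In diabetic retinas the ZT5 libraries had 3198, 3244, 3296, 3331 and 4231, and the ZT17 libraries 3912, 4258, 4379 and 5062. All control libraries of ZT17 were thus above those of ZT5, while 1 diabetic ZT5 library reached into the ZT17 range. The fitted peak (acrophase) was at ZT17.0 ± 1.06 (SE) in control and ZT17.1 ± 1.02 in diabetic retinas, with relative amplitudes (the height of the fitted cosine's peak above its mean, in percent of that mean) of 9.29% ± 2.46 and 10.1% ± 2.75 (JTK permutation p = 0.00191 and 0.00942). The diabetic call did not pass adjustment over all genes (adjusted p = 0.0722, JTK), and it was lost without the ZT5 or the ZT17 libraries (permutation p = 0.0730 and 0.101). In control retinas the call was lost without ZT5 (permutation p = 0.0600). The 4 markers of Muller glia, the glia that span the retina, had a median sum of 37405 normalized counts at ZT5 and 44701 at ZT17 in control retinas, and of 38387 and 44158 in diabetic retinas. Glul made up most of the Muller glia sum, with a mean of 32380 over all libraries, against at most 3734 for each other marker. The 4 bipolar cell markers had median sums of 19820 and 23140 in control and of 18067 and 20781 in diabetic retinas. Those of the 7 endothelial markers were 5446 and 5526 in control and 5203 and 5312 in diabetic retinas. Kdr and Flt1 made up most of that sum. Their means over all libraries were 2804 and 2010 normalized counts, against at most 163 for each other endothelial marker. The part of these cell types in the Epas1 profile was not tested.

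Hif3a, on chr7:17031507-17062427, had the largest relative amplitude of the 9 genes in both genotypes. In control retinas the ZT1 libraries had 74.2, 86.8, 94.7, 95.4 and 122 normalized counts, and the ZT13 libraries 176, 214, 218, 233 and 290. The diabetic ZT1 libraries had 109, 110, 120, 121 and 133, and those of ZT13 had 226, 240, 251 and 273. In both genotypes every library just after lights off was thus above every library just after lights on, by a ratio of means of 2.39 in control and 2.09 in diabetic retinas. The spread was widest at diabetic ZT9, with 125, 166, 172, 295 and 349, and at control ZT17, between 128 and 278. Replicates 1 and 3 of control ZT17 had the highest Hif3a values there, 276 and 278. The same libraries had the highest Epas1 (5074 and 5147) and the lowest Hif1a (6935 and 6354) of that group. Relative amplitude was 46.2% ± 5.77 (SE) in control and 37.3% ± 6.89 in diabetic retinas, with acrophases of ZT13.4 ± 0.48 and ZT12.3 ± 0.70 (JTK permutation p = 3e-06 and 1e-05; adjusted p = 0.000470 and 0.00120).

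Arnt, on chr3:95434388-95497240, encodes the common partner of the alpha subunits and of other factors of its family, and peaked in the light. Its group means ranged from 1352 ± 106 at ZT9 to 1215 ± 48.3 at ZT17 in control retinas (SD, n = 5 each) and from 1407 ± 109 at ZT1 (n = 5) to 1237 ± 52.3 at ZT17 (n = 4) in diabetic retinas. The relative amplitude was small, at 4.29% ± 1.78 (SE) and 6.27% ± 2.00, with acrophases at ZT5.2 ± 1.65 and ZT3.4 ± 1.17 (JTK permutation p = 0.0492 and 0.00518; adjusted p = 0.220 and 0.0499). The control call lay at the threshold and held in only 18 of 42 alternative settings, against 37 of 39 for the diabetic call.

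**Figure D2:**
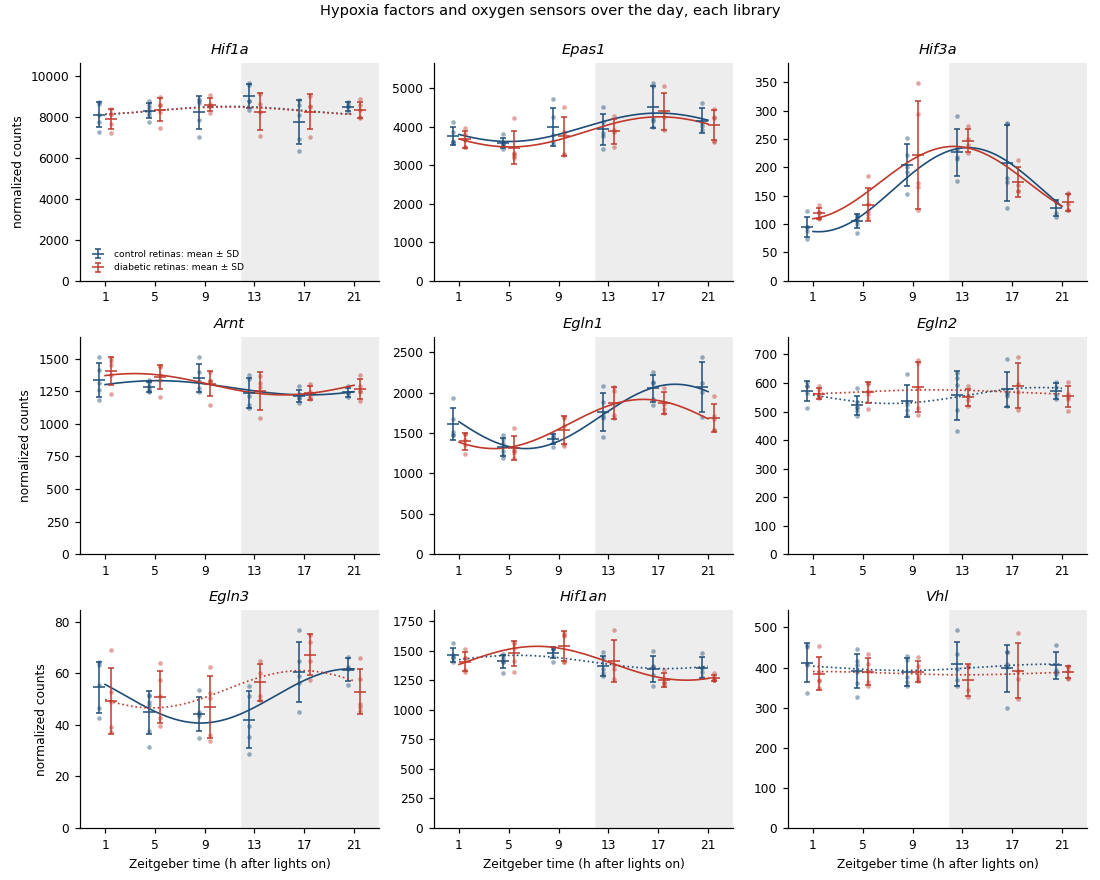
Normalized counts of the 9 genes by time point (ZT, hours), 1 panel per gene, with points for libraries, dashes and bars for group means ± SD, and the fitted 24 h cosine as a line (solid where the gene was called rhythmic, dotted where not), for control and diabetic retinas and with the dark phase shaded. Egln1 is lowest at ZT5 and Hif3a at ZT1 in both genotypes, and Hif3a is highest at ZT13, while Hif1a, Egln2 and Vhl have no rhythm call.

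Egln1, on chr8:124908587-124949324, encodes the main prolyl hydroxylase acting on Hif1a protein in most tissues, and was lowest at ZT5 and high in the dark. In control retinas its 6 libraries at ZT5 had 1189 to 1479 normalized counts with a median of 1323, those at ZT17 had 1850, 1922, 2120, 2130 and 2253, and those at ZT21 had 1694, 2003, 2122 and 2447. In diabetic retinas those at ZT5 had 1185, 1254, 1273, 1290 and 1568, those at ZT13 had 1692, 1722, 2017 and 2069, those at ZT17 had 1753, 1795, 1858 and 2063, and those at ZT21 had 1540, 1541, 1671, 1710 and 1964. The lowest and highest groups did not overlap in either genotype: control ZT21 was 1.56 times ZT5 (2066 ± 312, SD, n = 4, against 1328 ± 116, n = 6), and diabetic ZT13 was 1.43 times ZT5 (1875 ± 195, n = 4, against 1314 ± 147, n = 5). The neighbouring ZT17 groups differed from these maxima by less than their SD, with means of 2055 ± 165 (n = 5) for control ZT17 and 1867 ± 137 (n = 4) for diabetic ZT17. JTK gave a permutation p = 1e-06 in both genotypes, the smallest value that the 1000000 shuffled series can give (adjusted p = 0.000470 in control and 0.000193 in diabetic retinas). Relative amplitude was 23.3% ± 2.72 (SE) and 18.9% ± 2.52. This gene was among those the study named for an earlier phase in these same retinas, so its values here are not independent evidence of that direction.

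Pigment epithelium, which lies against the retina and can adhere to it on dissection, had marker sums that also followed the time of day. Its 5 markers had median sums of 626, 682, 1869, 1875, 1719 and 2129 normalized counts from ZT1 to ZT21 in control and 578, 327, 1196, 1900, 1312 and 2074 in diabetic retinas, ranging over all libraries from 315 to 3014 and from 251 to 2814. No marker of the list was at 0 in all libraries. Their part in the profiles of Egln1, Hif3a and Epas1 was not tested.

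Egln2, on chr7:27158658-27166802, encodes the hydroxylase with a largely nuclear location, and showed no rhythm call in either genotype (JTK permutation p = 0.168 and 0.957). It had 555 ± 53.7 normalized counts in control (SD, n = 30) and 568 ± 50.8 in diabetic retinas (n = 28). Only 11 exonic bases are shared with Cyp2t4 on the opposite strand.

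Egln3, on chr12:54178981-54203860, encodes the prolyl hydroxylase that hypoxia induces most in many cells, and was rhythmic in control retinas alone by the call (JTK permutation p = 0.00341 against 0.145 in diabetic retinas). The difference in rhythm itself did not pass (interaction p = 0.0884, edgeR, n = 30 and n = 28; adjusted p = 1.00). The control libraries had 28.9, 35.2, 39.5, 51.3 and 55.3 normalized counts at ZT13, and 55.4, 61.8, 62.5 and 66.3 at ZT21. The diabetic libraries had 49.8, 51.1, 60.3 and 64.9 at ZT13, and 57.3, 64.9, 72.1 and 74.9 at ZT17, the group with the highest mean. At these low counts the groups of ZT13 overlapped between genotypes. The control acrophase was at ZT20.7 ± 0.83 (SE) with a relative amplitude of 20.5% ± 4.68, and the diabetic cosine peaked at ZT16.8 ± 1.45 with 13.4% ± 5.23.

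Hif1an, on chr19:44562850-44576274, encodes the asparagine hydroxylase that blocks coactivator binding, and peaked in the light. In diabetic retinas the ZT9 libraries had 1403, 1404, 1624, 1631 and 1652 normalized counts, the ZT17 libraries 1206, 1224, 1239 and 1338, and the ZT21 libraries 1248, 1250, 1252, 1279 and 1312. All ZT9 libraries were thus above all those of ZT17 and ZT21, but not above those of ZT13, which had 1257, 1343, 1379 and 1673. In control retinas ZT9 had 1409, 1459, 1512, 1518 and 1525 and ZT17 had 1202, 1292, 1361, 1367 and 1502, so these groups overlapped. The diabetic rhythm was called (JTK permutation p = 3.8e-05; adjusted p = 0.00248) with an acrophase at ZT7.3 ± 0.74 (SE) and a relative amplitude of 10.3% ± 1.95. In control retinas the JTK permutation p was 0.0544 and the relative amplitude 4.01% ± 1.45. The control call depended on the setting, as Hif1an passed in 11 of 42 alternatives. Among them was that without the 3 libraries high in lens markers (JTK permutation p = 0.0114). This raised the control count to 6 of 9, against 20.2% of all genes in that setting.

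Vhl, on chr6:113623959-113631633, encodes the protein that recognizes hydroxylated alpha subunits, and had the smallest relative amplitude of the 9 genes in both genotypes. It had 400 ± 43.3 normalized counts in control (SD, n = 30; 299 to 493) and 386 ± 36.0 in diabetic retinas (n = 28; 322 to 487). Its relative amplitudes were 1.98% ± 2.93 (SE) and 1.07% ± 2.62, with permutation p-values of 0.780 and 0.957 (JTK).

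With adjustment over all genes, 4 of the 9 genes stayed rhythmic in control retinas (Epas1, Hif3a, Egln1 and Egln3; background 8.23%) and 4 in diabetic retinas (Hif3a, Arnt, Egln1 and Hif1an; background 10.3%). A test for any difference among the 6 time points (edgeR) called Hif3a and Egln1 in control retinas, 2 of 9 against 9.10% of all genes, with adjusted p-values of 1.56e-07 and 1.68e-07. In diabetic retinas it called Egln1, Hif3a and Hif1an, 3 of 9 against 10.1%, with adjusted p-values of 6.87e-05, 7.03e-05 and 0.000967. Epas1 stood near the threshold in both (adjusted p = 0.0540 and 0.0730, edgeR). It passed in 15 of 70 alternative settings in control and 7 of 70 in diabetic retinas, and passed in control retinas without the libraries high in lens markers (adjusted p = 0.0389).

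**Figure D3:**
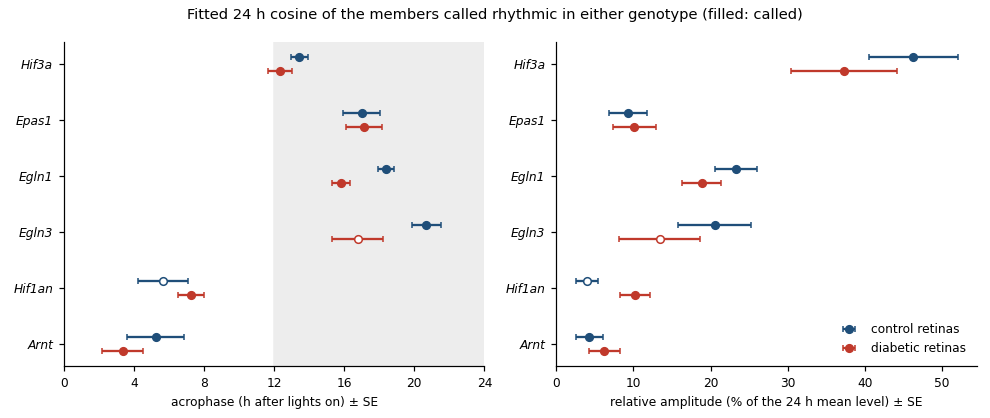
Acrophase (left, ZT in hours, dark phase shaded) and relative amplitude (right, percent of the mean level) with SE bars for the 6 genes called rhythmic in either genotype, with open points where the gene was not called. Egln1 moves from ZT18.4 in control to ZT15.8 in diabetic retinas, and Epas1 stays near ZT17.

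The rhythms were then compared between genotypes. Egln1 peaked at ZT18.4 ± 0.45 (SE) in control and ZT15.8 ± 0.49 in diabetic retinas, a shift of -2.55 h ± 0.668, with an unadjusted interaction p of 0.000840 (edgeR, n = 30 and n = 28). After adjustment over all genes it did not pass (adjusted p = 0.764), nor over the 6469 genes rhythmic in either genotype (adjusted p = 0.299). No gene tested passed this test after adjustment (0%), and DESeq2 and limma also called 0. The study, with another package and adjustment over genes cycling in either genotype, did report differentially rhythmic genes in these samples. Here 643, 631 and 668 genes had an unadjusted p under 0.05 by edgeR, DESeq2 and limma. At that unadjusted level 2 of the 9 genes passed, Egln1 and Hif1an, against 3.36% of all genes. That of Hif1an did not pass in 9 of 71 alternatives, among them that without the 3 libraries high in lens markers (p = 0.0842, edgeR, n = 27 and n = 28). Hif1an (p = 0.0311, edgeR, n = 30 and n = 28; adjusted p = 1.00) had a relative amplitude in diabetic retinas 6.26 ± 2.43 (SE) percentage points above that in control retinas, and an acrophase shift of 1.62 h ± 1.61. Of the genes rhythmic in both genotypes, Hif3a had a shift of -1.11 h ± 0.852 and Arnt one of -1.86 h ± 2.02, and that of Epas1 was 0.13 h ± 1.47, whose sign turned in several alternatives. The Hif3a shift was -0.61 h without diabetic ZT9 replicate 5 and -0.44 h without ZT17. That of Arnt was -0.83 h without control ZT9 replicate 3, -3.001 h without control ZT1 replicate 3 and 0.45 h without ZT9. For comparison, 1602 of the 2268 genes rhythmic in both genotypes peaked earlier in diabetic retinas, with a median shift of -0.63 h. Without the libraries high in lens markers the Egln1 shift was -2.84 h.

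None of the 9 genes passed the test of a difference in level between genotypes. Over all time points 0 of 9 passed, against 3.00% of all genes tested (574 genes, edgeR). An unadjusted p under 0.05 was also reached by 0 of 9, where 2974 of the 19120 genes tested reached it (edgeR). DESeq2 called 0 of 9 too, against 3.50% of all genes. The log2 differences, diabetic minus control, were -0.0045 ± 0.031 (SE) for Hif1a, with a 95% interval from -0.07 to 0.06, and -0.05 ± 0.043 for Epas1, from -0.13 to 0.04. That of Egln1 was -0.08 ± 0.065, from -0.21 to 0.05, and that of Vhl, with the smallest p, was -0.05 ± 0.039, from -0.13 to 0.02 (adjusted p = 0.581, edgeR). The intervals were widest for Hif3a, from -0.18 to 0.34, and for Egln3, from -0.09 to 0.23. This fit held no term for time of day, so differences among time points are part of the spread.

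At single time points 0 of the 54 comparisons of a gene and a time point passed, against 0.0349% over all genes (edgeR). DESeq2 also called 0 of 54, against 0.00523% of all genes at ZT13, its lowest share, to 0.471% at ZT17, its highest. Normalized counts of the genotypes overlapped in all 54, where 1.34% of all such comparisons did not overlap. At an unadjusted p under 0.05 there were 3, against 5.69% over all genes. These were Egln1 at ZT21 (log2 difference -0.30 ± 0.095, SE; adjusted p = 0.584, edgeR), Egln1 at ZT1 (-0.20 ± 0.091; adjusted p = 0.844) and Egln3 at ZT13 (0.40 ± 0.192; adjusted p = 1.00). In control retinas Egln1 had 1476, 1480, 1508, 1669 and 1931 normalized counts at ZT1, and in diabetic retinas 1235, 1348, 1415, 1492 and 1494. Without control ZT1 replicate 1 the ZT1 difference was -0.13. At ZT9 and ZT13 its difference was positive, at 0.11 ± 0.091 and 0.09 ± 0.096. Without the libraries high in lens markers the ZT21 difference was -0.38.

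**Figure D4:**
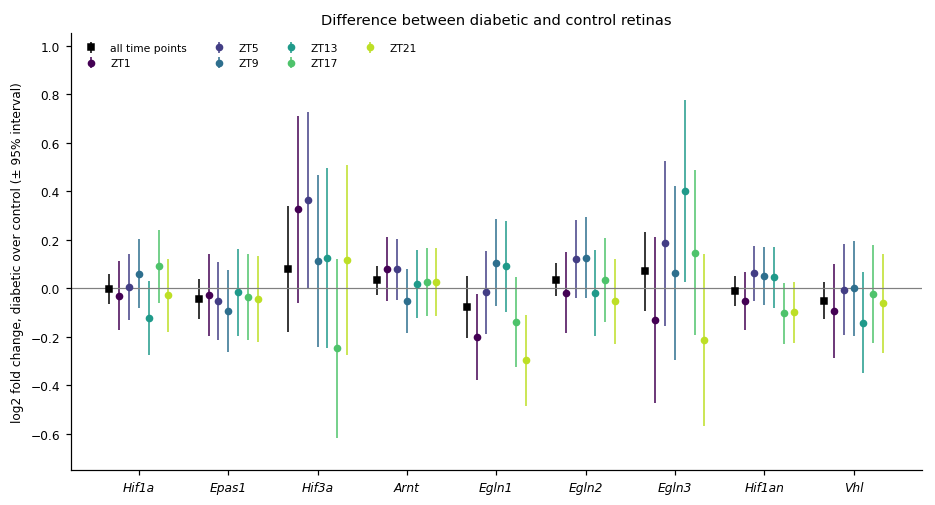
Log2 difference (diabetic minus control, edgeR) of the 9 genes at each time point and over all libraries, with 95% intervals. No interval over all libraries leaves 0 out, and at single time points those of Egln1 at ZT21 (from -0.48 to -0.11) and ZT1 and of Egln3 at ZT13 do.

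The partners and the ligase complex of the pathway were measured with a list of 14 genes, all tested. Of these, 2 were rhythmic in control retinas, Siah2 (JTK permutation p = 0.00686), a ubiquitin ligase that degrades prolyl hydroxylases, and Rack1 (p = 0.0445), and 2 in diabetic retinas, Siah2 (p = 0.00602) and Commd1 (p = 0.00382), against the same 21.8% and 23.9%. Siah2 peaked at ZT19.4 in control and shifted by -4.20 h ± 1.44 (SE) in diabetic retinas (interaction p = 0.0348, edgeR, n = 30 and n = 28; adjusted p = 1.00). None of the 14 was called between genotypes (edgeR adjusted p under 0.05), and the median log2 difference was -0.01. The list gave no rhythm call for Elob, Eloc, Cul2 and Rbx1, which form the ligase with VHL, or for the coactivators Ep300 and Crebbp.

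Genes that hypoxia-inducible factors are known to activate were followed with a list of 40, of which 37 were tested (Car9, Lox and Epo were below the filter). In control retinas 29 were rhythmic and in diabetic retinas 25, against 21.8% and 23.9% of all genes, and 22 were rhythmic in both. The median relative amplitude of the 37 was 15.3% in control and 10.9% in diabetic retinas, against 7.07% and 7.26% over all genes. The smallest control permutation p-values, 1e-06 to 5e-06 (JTK), belonged to Pfkl, Hk2, Pdk1, Pgam1, Slc16a3, Ldha, P4ha1, Slc2a1, Tpi1 and Pfkp. Most of these code for enzymes of glycolysis or for carriers of glucose and lactate. In diabetic retinas the smallest were those of Pfkl, Hk2, Slc16a3, Tpi1, Slc2a1, Car12, Mxi1, Pgk1, Aldoa and Pgam1, from 1e-06 to 0.000151. Vegfa, the vessel growth factor, was called in control retinas (JTK permutation p = 0.0129) but not in diabetic retinas (p = 0.202), and its interaction p was 0.323 (edgeR, n = 30 and n = 28).

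Of the 22 targets rhythmic in both genotypes, 19 peaked earlier in diabetic retinas, with a median shift of -1.62 h, beside 70.6% of all genes rhythmic in both and their median of -0.63 h. Hk2, which makes glucose 6-phosphate, peaked at ZT18.4 in control and shifted by -1.44 h ± 0.448 (SE), with relative amplitudes of 36.4% and 37.5%. Pdk1, which encodes a kinase of the pyruvate dehydrogenase complex, shifted by -3.64 h ± 1.19. Ldha, which makes lactate, shifted by -2.28 h ± 0.874 with amplitudes of 17.8% and 10.9%. The exceptions were Ndrg1 at 3.32 h ± 2.37, Car12 at 1.07 h ± 1.26 and Pfkfb4 at 0.01 h ± 1.56. At an unadjusted p under 0.05, 9 of the 37 had an interaction against 3.36% of all genes, but none passed adjustment (edgeR). Without the libraries high in lens markers 27 targets were rhythmic in control retinas, against 20.2% of all genes, 22 were rhythmic in both and 20 of these peaked earlier in diabetic retinas, with a median shift of -1.86 h, beside 70.8% of all such genes and a median of -0.75 h. An unadjusted interaction p under 0.05 then held for 13 of the 37 against 3.78% of all genes, and again none passed adjustment. The counts of the 14 partner genes did not change. Hk2, Pfkl, Pfkp, Ldha, Pdk1 and Slc2a1 were named by the study for their phase in these same samples, so these counts are not independent evidence of the direction. No target was called between genotypes over all time points (edgeR adjusted p under 0.05), and the median log2 difference was -0.01.

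**Figure D5:**
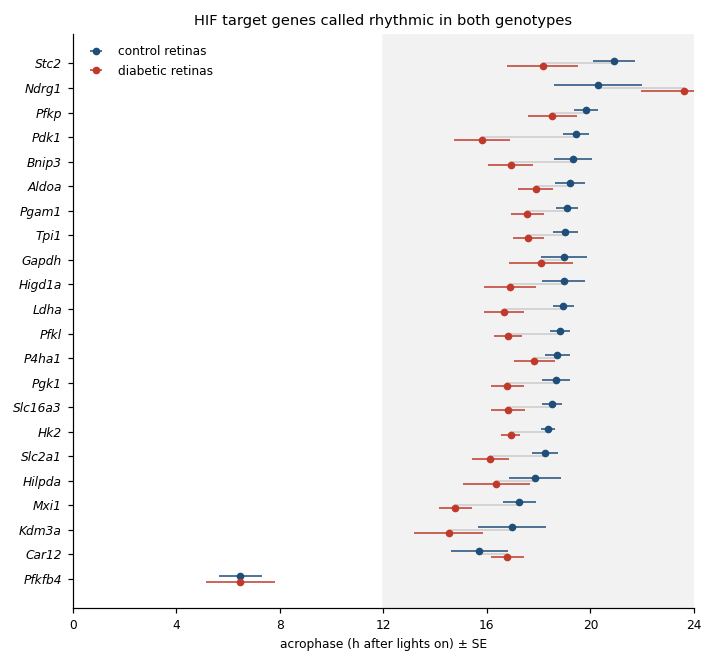
Acrophase (ZT, hours, with SE bars) of the 22 target genes rhythmic in both genotypes, 1 row per gene, with a grey line joining the control and the diabetic value. In 19 of the 22 rows the diabetic point lies to the left of the control point, an earlier peak.

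The genes whose profile over the 12 group means was closest to each rhythmic member were looked for among 12953 genes, as Pearson's r of log2 normalized counts, a description over 12 points that share libraries and depth. Egln1 was most like Ccdc117 (r = 0.967) and Hk2 (r = 0.963), and Hif3a most like Tnfsfm13 (r = 0.939) and Zbtb16 (r = 0.922). For Epas1 they were Aldh2 (r = 0.954) and Nt5dc2 (r = 0.953), and for Egln3 Igfbp2 (r = 0.918) and Arhgef17 (r = 0.914). Arnt was most like Brca1 (r = 0.959) and Insm1 (r = 0.948), and Hif1an most like Telo2 (r = 0.958) and Capn10 (r = 0.946). The control acrophase of Zbtb16 was ZT14.7, close to the ZT13.4 of Hif3a, and that of Hk2 was the same as that of Egln1 to the first decimal. In diabetic retinas Hk2 peaked at ZT16.9 and Egln1 at ZT15.8.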

How the data were processed

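Retinal RNA was depleted of ribosomal RNA and sequenced. The authors aligned reads with STAR 2.7.4a to GRCm38.p5, counted them per Gencode M15 gene with HTSeq 0.11.1 and deposited raw whole-number read counts. Here counts were normalized with DESeq2 1.42.0 size factors for rhythm and with TMM in edgeR 4.0.16 for the quasi-likelihood tests (R 4.3.3), with Benjamini-Hochberg adjustment over all 19120 genes with a median above 4 normalized counts. Rhythm was tested with empirical JTK_CYCLE written anew in Python 3.11.15 (30 waveforms, 1000000 shuffled series), and acrophase and amplitude came from a 24 h cosine. The interaction of genotype with that cosine was tested in edgeR in place of the study's package for differential rhythm, which was not used here. All 9 members were named, with list genes past a threshold (at most 10 per test) and the 2 genes most like each rhythmic member. Members and lists were chosen with earlier results of these data known. Gene positions were taken from Gencode M21 (GRCm38). The scripts were tested on simulated data. Alternatives were other normalizations, filters and tests, each library or time point left out, and a replicate block.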

Additional observations from a re-analysis of the deposited data

Results flagged for a closer look

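In 5 of 108 groups of libraries for a gene, genotype and time point, 1 library stood apart by Dixon's criterion, where chance gives about 1 in 20. Epas1 had 4231 normalized counts in diabetic ZT5 replicate 4, against at most 3331 in the other libraries of that group. The same library had 1568 for Egln1, against at most 1290. Arnt had 1145 in diabetic ZT9 replicate 3, against at least 1331 in the others. Vhl had 299 in control ZT17 replicate 1, against at least 402, and 456 in control ZT21 replicate 1, against at most 395. Without diabetic ZT5 replicate 4, the difference of Epas1 among time points passed in diabetic retinas (adjusted p = 0.0130, edgeR), and in control retinas too (adjusted p = 0.0342). The cause was not tested.

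The rhythm differed between genotypes at an unadjusted p under 0.05 for Egln1 (p = 0.000840, edgeR, n = 30 and n = 28) and Hif1an (p = 0.0311), and for neither after adjustment over all genes (adjusted p = 0.764 and 1.00).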

How the results depend on the processing

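No member was called between genotypes, over all time points, at a single time point or in its rhythm, in any alternative run. The number of members differing among time points in control retinas was 2, and 4 with the DESeq2 test (Egln1, Egln3, Epas1 and Hif3a), which called 11.3% of all genes there against 9.10% for edgeR. With each library left out it lay between 2 and 4, and 4 was reached without control ZT13 replicate 4. In diabetic retinas it was 3 to 4. The members rhythmic in control retinas numbered 4 to 6 and in diabetic retinas 4 to 5. The rhythm calls of Egln1 and Hif3a held in all 42 control and all 39 diabetic alternatives, that of Egln3 in all 42 control ones and that of Hif1an in all 39 diabetic ones. The Arnt call in diabetic retinas was lost without ZT1 (permutation p = 0.0625) and with an edgeR cosine test (adjusted p = 0.0614). Settings without a time point in the edgeR fits, and those without libraries high in lens markers, were added after seeing the data.

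Differences near 0 changed sign in some settings, and the cause was not tested. The log2 difference of Hif1a became 0.0039 without ZT1 and 0.0202 without ZT13, and lay between -0.0163 and 0.0039 with each library left out. That of Hif1an became 5.47e-05 without ZT17 and 0.0081 without ZT21. The Epas1 shift became -0.0891 h without ZT1, -0.30 h without ZT9 and -0.0543 h without the libraries high in lens markers, and lay between -0.44 and 0.65 h with each library left out. The Arnt shift became 0.45 h without ZT9. Those of Egln1 lay between -2.84 and -2.31 h.

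With replicates of the same number as a block, the log2 difference of Hif3a became -0.0035, and the members called were 0 over all time points, 0 at single time points and 0 in rhythm. They were 3 among time points in control and 4 in diabetic retinas, Epas1 being added in both (adjusted p = 0.0103 and 0.0244, edgeR), while the share of all genes called was 12.9% and 12.6% with the block against 9.10% and 10.1% without it. An edgeR cosine test with the block called 4 in control and 5 in diabetic retinas, against 3055 and 3048 of the 19120 genes tested. Over all genes the block moved the calls over all time points from 574 to 515, those at ZT17 from 33 to 61 and those at ZT5 from 4 to 10. Same-numbered control and diabetic libraries of a time point had a median correlation of 0.32, over 0.1 in 22 of 26 pairs. Over all groups the median was 0.242 for the same number and -0.037 for other numbers. Of 58 libraries, 27 correlated best with their own number, a hint from the data and not from the design that libraries of a number may share something. As the labels give no shared source for a number and the correlation was not over 0.1 in every pair (from -0.59 to 0.86), the block was kept as an alternative.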

Other observations

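Over the 58 libraries, deviations from the group means of log2 normalized counts correlated most positively between Epas1 and Egln2 (Pearson r = 0.638), Hif1a and Vhl (r = 0.471), Egln1 and Egln3 (r = 0.424) and Hif3a and Egln2 (r = 0.416), while Hif3a went opposite to Vhl (r = -0.536) and to Hif1a (r = -0.530). These are descriptions of libraries that share depth and normalization.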
